A study of Mus musculus with 4 samples.

Results

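The genes described here are 10 genes by which T cells are recognised: the CD3 chains of the T cell receptor complex (Cd3e, Cd3d and Cd3g), the coreceptors Cd4, Cd8a and Cd8b1, the kinase Lck, the surface receptor Cd5, and the regulatory T cell genes Foxp3 and Ctla4. They were chosen by name, and their probes were found through the RefSeq accession that the array gives for each probe. This gave 12 probes of 39429, which stand for 10 of 32360 genes or unnamed transcripts. Cd4 and Cd8a have 2 probes each and the others have 1. A ratio between the channels was obtained for 9 of the 10 genes, whereas Ctla4 had none on any array.

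Middle ear tissue of mice exposed to diesel exhaust particles (DEPs) was compared with that of control mice on 4 two-colour arrays of 1 slide. The mice were male BALB/c, 6 to 10 weeks old, and DEPs were inhaled for 1 h on each of 5 days, and the mice were killed on day 14, when the bone around the middle ear was taken with it. The study used 9 mice, and the sources used here do not state the number of mice behind each extract. Every array carried the extract named DEP_ear in red (Cy5) and the extract named CON_ear in green (Cy3), with no dye swap, so that dye and exposure cannot be told apart. The labels list both treatments, DEP and none, under the Cy5 channel, so that the groups rest on the extract names. Nothing states that the 4 extracts of a group came from separate animals, other than the label that calls them biological replicates, so the p-values given measure the spread between arrays.

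In T cells, the antigen receptor has no signalling tail of its own. It is carried to the cell surface with the CD3 chains, whose tails are phosphorylated by Lck once Cd4 or Cd8 has bound the same MHC molecule as the receptor. Cd4 marks helper T cells, the Cd8a and Cd8b1 chains form the coreceptor of cytotoxic T cells, Cd5 dampens receptor signals, and Foxp3 is the transcription factor that defines regulatory T cells, which display the inhibitory receptor Ctla4. In inflamed middle ear, as in other mucosa, T cells are part of the adaptive response. The arrays were made from whole tissue, in which fewer T cells and less RNA per T cell cannot be told apart.

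T cell transcripts were present in both groups. The probes for Cd3e, Cd3d, Cd8b1, Lck and Cd5 and the brighter probe for Cd4, 6 genes in all, lay well above background in Cy5 and in Cy3 on every array, by the call of the image software. A probe with this call is termed measured below, and a gene with it in both channels throughout is termed measured in full. Cd3g lacked this call once, for Cy3 of array 4. Foxp3 was measured on 2 arrays in the DEP channel only, and Cd8a and Ctla4 were never measured. None of the 6 genes measured in full passed the test between DEP and control, given the spread of the 4 arrays, and the ratios past 2-fold, those of Foxp3 and of the dim Cd4 probe, came from spots near background.

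**Figure D1:**
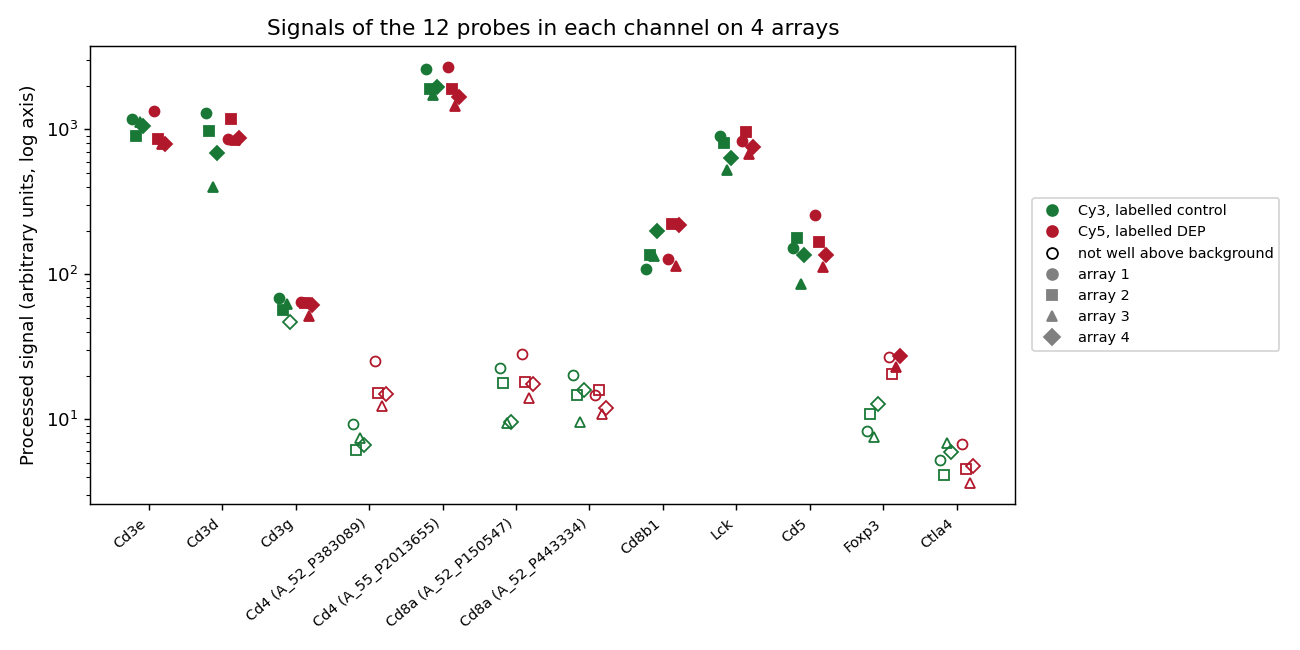
Processed signal (log axis, arbitrary units) of each of the 12 probes on arrays 1 to 4, in green for Cy3 (control) and red for Cy5 (DEP); open symbols were not measured above background. The colours overlap for the probes with filled symbols in both colours, such as Cd4 (A_55_P2013655) at 1446 to 2706 in Cy5 and 1718 to 2607 in Cy3. They lie apart for Foxp3 and for Cd4 (A_52_P383089), which sit near background.

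The 3 CD3 genes lie next to each other on mouse chromosome 9. In the RefSeq promoter windows of build GRCm38.p6, which run from 250 bases before to 50 after a gene's start, the starts of Cd3g and Cd3d are 1355 bases apart and read away from each other, and Cd3e starts 27825 bases beyond Cd3d. The windows are shown because their genes encode parts of the same complex and lie side by side. Capitals mark AGGAAG or its reverse complement CTTCCT, a core sequence of ETS family factors, of which Cd3d and Cd3e have 2 each and Cd3g has 0. Cd3g is at chr9:44980382-44980681 (minus strand), Cd3d at chr9:44981536-44981835 (plus strand) and Cd3e at chr9:45009562-45009861 (minus strand).
Cd3g: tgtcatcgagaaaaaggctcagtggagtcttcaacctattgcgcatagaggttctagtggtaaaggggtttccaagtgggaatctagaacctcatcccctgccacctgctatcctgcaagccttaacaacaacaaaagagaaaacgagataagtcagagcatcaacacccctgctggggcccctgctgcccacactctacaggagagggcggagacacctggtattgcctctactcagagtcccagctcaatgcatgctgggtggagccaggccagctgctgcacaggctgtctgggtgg
Cd3d: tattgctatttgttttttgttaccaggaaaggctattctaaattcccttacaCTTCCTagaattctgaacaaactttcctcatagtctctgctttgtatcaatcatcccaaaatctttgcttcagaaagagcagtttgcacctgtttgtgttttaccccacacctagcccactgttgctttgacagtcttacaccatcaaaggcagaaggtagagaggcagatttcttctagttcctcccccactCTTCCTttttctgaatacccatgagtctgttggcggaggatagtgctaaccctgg
Cd3e: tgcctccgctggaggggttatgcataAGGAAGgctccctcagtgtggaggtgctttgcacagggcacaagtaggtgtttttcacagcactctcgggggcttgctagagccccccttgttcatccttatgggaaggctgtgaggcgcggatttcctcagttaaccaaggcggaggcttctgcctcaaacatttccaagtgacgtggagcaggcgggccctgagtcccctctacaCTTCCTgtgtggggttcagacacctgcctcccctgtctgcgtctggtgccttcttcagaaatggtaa

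The letters AGGAAG, read on both strands, occur in 35.4% of all 32851 windows in the RefSeq table. Windows were found for 8 of the 10 genes, 10 windows in all, and 6 of the 8 genes held the letters in a window. The counts here are by gene, whereas the shares are of windows. TGTGGT, the core of RUNX factors, occurs in 16.8% of all windows and in 1 of the 8 genes, Lck. A match of letters is a description of the window and not a binding site.

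Cd3e, the CD3 chain that pairs with both others, had signals of 1338, 856, 796 and 798 in Cy5 and of 1173, 894, 1127 and 1062 in Cy3 on arrays 1 to 4. The groups overlapped, and Cy5 was the higher channel on array 1 alone. The mean log2 ratio of DEP over control was -0.20 ± 0.32 (SD over 4 arrays, SE 0.16, adjusted p = 0.531 in limma's moderated test over all probes), with a 95% interval from -0.60 to 0.21. Positive ratios here are higher in the channel named DEP_ear. For some genes the sign of the ratio was the opposite of the direction in the study's text. These were Foxp3, the dimmer Cd4 probe but not the brighter, and, outside the genes described here, Sos1 and the astrocyte gene Slc1a2. Of them only Slc1a2 was measured in full. Cy3 was never measured for Foxp3 or the dimmer Cd4 probe, and on 1 array for Sos1, so no direction is read from these. The study's qRT-PCR, which was not analysed here, gave decreases for CD4 and SOS1.

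Cd3d, which pairs with Cd3e in the complex, went the other way on 4 of 4 arrays. Its signals were 860, 1187, 843 and 877 in Cy5 and 1298, 982, 402 and 685 in Cy3. The Cy5 values lay closer together, whereas the Cy3 values ranged from 402 on array 3 to 1298 on array 1. The log2 ratios were -0.59, 0.27, 1.07 and 0.36 on arrays 1 to 4, where those of Cd3e were 0.19, -0.06, -0.50 and -0.41. The mean for Cd3d was 0.28 ± 0.68 (SD over 4 arrays, SE 0.28, adjusted p = 0.614 in limma), and its interval from -0.45 to 1.00 was the widest of the 11 probes. The mean was 0.012 without array 3 and 0.57 without array 1. The SD between arrays was larger than that of 80.4% of all probes tested. The difference between the 2 genes was not tested.

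Cd3g, which also pairs with Cd3e, had signals of 64.2, 63.7, 51.8 and 61.7 in Cy5 and of 68.6, 57.2, 62.0 and 46.6 in Cy3, the last of them not measured. The channels overlapped. The mean ratio was 0.05 ± 0.29 (SD over 4 arrays, SE 0.15, adjusted p = 0.867 in limma), above 0 on 2 arrays and below 0 on 2. It had the highest p-value among the 9 genes, and its interval ran from -0.33 to 0.43.

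Among the coreceptors, Cd4 had 2 probes that did not give the same answer. The brighter probe (A_55_P2013655) had signals of 2706, 1894, 1446 and 1682 in Cy5 and of 2607, 1885, 1718 and 1952 in Cy3. In both channels array 1 was the highest and array 3 the lowest, and the channels overlapped. Its log2 ratios were 0.05, 0.01, -0.25 and -0.21, and their SD of 0.15 was the smallest of the 11 probes. The mean was -0.10 (SE 0.11, adjusted p = 0.649 in limma), with an interval from -0.39 to 0.19.

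The other Cd4 probe (A_52_P383089), which targets the same accession, is spotted 10 times on each array. It had mean signals of 25.2, 15.3, 12.3 and 15 in Cy5 and of 9.35, 6.13, 7.43 and 6.63 in Cy3, whereas the dimmest spots called measured had 16 to 31.1 (Cy5) and 20.8 to 36.5 (Cy3) on the 4 arrays. It was higher in Cy5 on 4 of 4 arrays, and all 37 spots used had a ratio above 0. Only 4 of the spots were measured in Cy5 and 0 in Cy3. The mean ratio was 1.16 ± 0.31 (SD over 4 arrays, SE 0.15, adjusted p = 0.105 in limma), with an unadjusted p of 0.000672. Within an array the SD of the spots was between 0.37 and 0.62. After normexp background correction, which raises low signals by an offset of 50, the ratio was 0.21 with loess and 0.02 with median centring. As the probe was never measured, no fold is given.

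Cd8a also has 2 probes, for different accessions, and neither was measured on any array, although 1 spot of the probe with 10 spots had the call in Cy5. The probe with 1 spot (A_52_P150547) had signals of 14 to 28.0 in Cy5 and 9.40 to 22.5 in Cy3, and its ratio of 0.44 ± 0.36 (SD over 4 arrays, SE 0.17, adjusted p = 0.266 in limma) was above 0 on 4 of 4 arrays. The probe with 10 spots (A_52_P443334) had signals of 10.8 to 15.9 in Cy5 and 9.59 to 20.1 in Cy3. Its ratios were -0.46, 0.12, 0.17 and -0.40, with a mean of -0.14 ± 0.34 (SD over 4 arrays, SE 0.16, adjusted p = 0.650 in limma). Of its 40 spots, 7 were flagged as outliers and left out, and 14 of the 33 used had a ratio above 0. The probes thus gave means of opposite sign at signals that were not measured above background, and no fold is given.

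**Figure D2:**
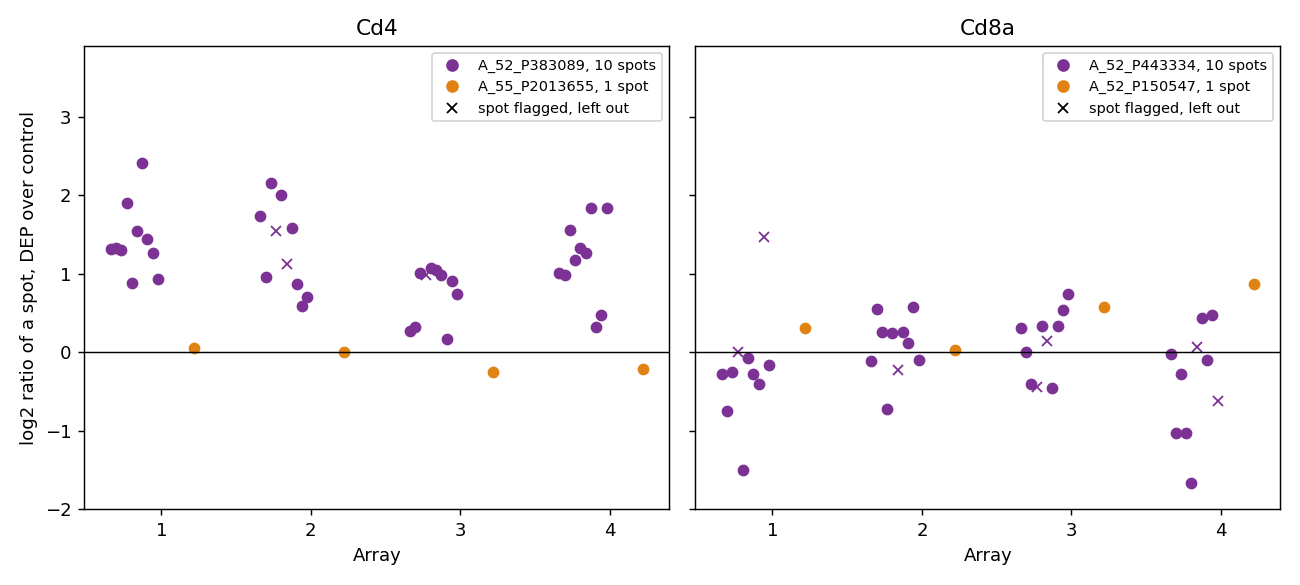
Log2 ratio of every spot of the probes for Cd4 (left) and Cd8a (right) on arrays 1 to 4; crosses are spots flagged as outliers and left out. The 37 spots used of the dim Cd4 probe (purple) all lie above 0, and the brighter probe (orange) lies between -0.25 and 0.05. The spots used of the Cd8a probe with 10 spots lie on both sides of 0 on arrays 2 to 4 and below 0 on array 1.

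Cd8b1, the beta chain of the cytotoxic coreceptor, was measured in full although Cd8a was not. Its signals were 127, 222, 115 and 220 in Cy5 and 108, 135, 133 and 199 in Cy3. The channels overlapped, and the widest gap, on array 2, was not repeated on the others. The mean ratio was 0.22 ± 0.38 (SD over 4 arrays, SE 0.18, adjusted p = 0.526 in limma), above 0 on 3 of 4 arrays, with an interval from -0.23 to 0.67.

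Lck, which phosphorylates the CD3 tails, had signals of 832, 965, 679 and 753 in Cy5 and of 898, 803, 524 and 636 in Cy3. It was higher in Cy5 on arrays 2 to 4 and lower on array 1. The mean ratio was 0.19 ± 0.21 (SD over 4 arrays, SE 0.13, adjusted p = 0.448 in limma), with an interval from -0.13 to 0.52.

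Cd5 had signals of 257, 166, 112 and 137 in Cy5 and of 152, 179, 86.2 and 137 in Cy3. The channels were level on array 4, and the gap on array 1 was the largest. The mean ratio was 0.26 ± 0.39 (SD over 4 arrays, SE 0.18, adjusted p = 0.473 in limma), with an interval from -0.21 to 0.72. For Cd3e, Cd4 (the brighter probe), Cd8b1, Lck and Cd5 the interval of the mean ratio thus left out a 2-fold change in either direction, and for Cd3d it reached 1.00, which is 2-fold.

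Foxp3 had signals of 27.0, 20.5, 22.9 and 27.4 in Cy5, measured on arrays 3 and 4, and of 8.36, 10.9, 7.58 and 12.7 in Cy3. The channels did not overlap, and the ratios were 1.69, 0.91, 1.60 and 1.11. Their mean was 1.33 ± 0.38 (SD over 4 arrays, SE 0.18, adjusted p = 0.105 in limma), with an unadjusted p of 0.00066 and an interval from 0.87 to 1.78. The Cy3 signals lay under the dimmest that counted as measured. Set against that limit in place of its own Cy3 signal, Foxp3 in Cy5 was not higher, so that no fold is given. With normexp the ratio was 0.20 after loess and 0.04 after median centring.

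Ctla4 had signals of 3.64 to 6.79 in Cy5 and of 4.13 to 6.85 in Cy3, and the software wrote no ratio for it on any array. Its probe was not measured in either channel, and whether the transcript was absent was not tested.

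**Figure D3:**
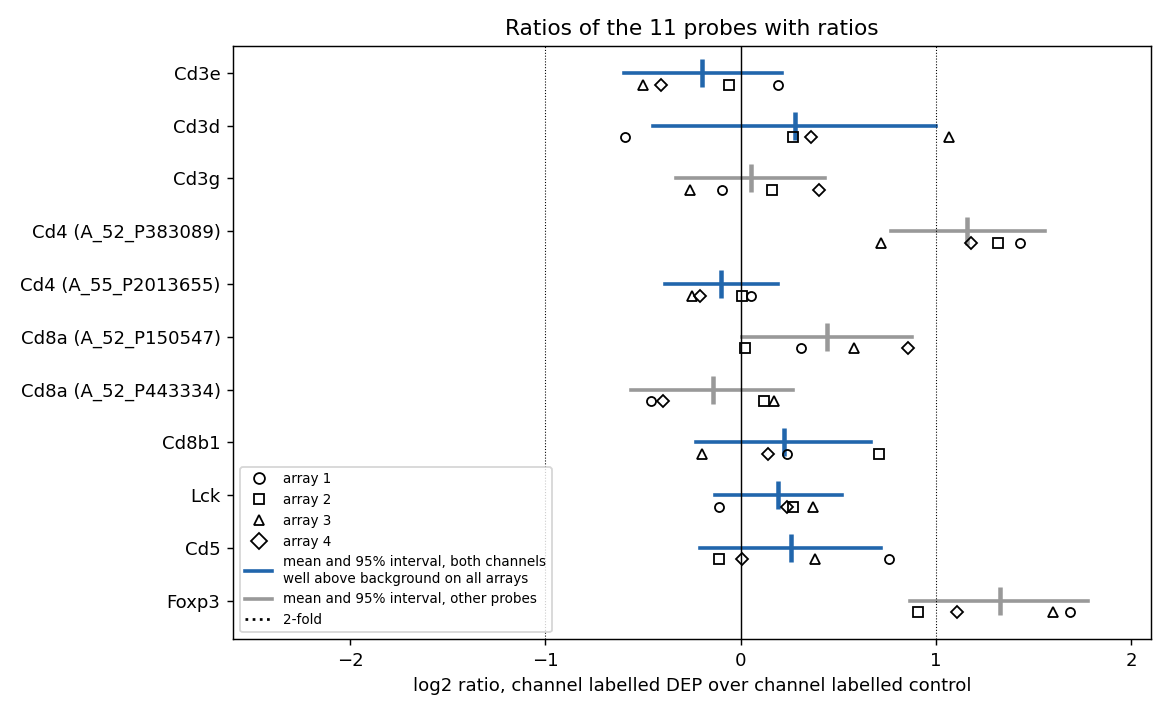
Log2 ratio of DEP over control for the 11 probes with ratios, with each array as a symbol and the mean with its 95% interval as a bar, blue for genes measured in full and grey elsewhere. The blue bars all cross 0, and the bars wholly above 0 belong to Foxp3 (0.87 to 1.78), to the dim Cd4 probe (0.77 to 1.56) and to a Cd8a probe (0.005 to 0.88), all grey.

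Taken by each gene's brightest probe, 7 of the 9 genes had a mean ratio above 0 and 2, Cd3e and Cd4, one below 0, with a median of 0.22, though the sign of Cd3e, Cd3g, Cd4 and Cd8a turned with normexp and median centring and that of Cd3g also with loess. Of all 25694 genes tested, 54.2% had a mean ratio above 0, and the median was 0.03. A mean ratio past 2-fold was found for 1 of the 9 genes, Foxp3, against 6.75% of all genes, 2.37% higher in DEP and 4.37% lower. An unadjusted limma p under 0.05 was found for 2 of the 9, Foxp3 and Cd8a, both higher, against 18.7% of all genes (10% higher and 8.66% lower). Among genes never measured, such as Cd8a, that share was 40.8% (16.5% higher), and among genes measured in full it was 12.6%. The ratio had the same sign on all arrays for the same 2 genes, against 30.1% of all genes. After Benjamini-Hochberg adjustment in limma 0 of the 9 genes passed, as did 0 of all genes (0.0%), of which 4800 had an unadjusted p under 0.05. Without moderation of the variance these counts were 0, 0 and 3991. Over the 6 genes measured in full, 4 had a mean ratio above 0 and 0 were past 2-fold, against 3.15% of all genes measured so.

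The members had unlike patterns over the arrays. For Cd3e the gene ranked first by likeness among 18339 genes measured in full, over the 8 values of log2 signal (2 channels on 4 arrays), was Kdm3b, a histone demethylase, with Pearson's r of 0.994. It was followed by P4ha3 (0.990), Rtn4rl2 (0.987), the unnamed probe A_55_P2020453 (0.983) and Llcfc1 (0.983). Of the other T cell genes, Cd4 had 0.81 with Cd3e, Cd5 0.31, Lck -0.07, Cd3d -0.21 and Cd8b1 -0.43. Among the 18339 genes these ranked 1399, 13583, 16987, 17536 and 18048, so most genes were more like Cd3e than Cd5 was. These values describe 8 signals that share 4 arrays and carry no test.

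Other genes of T cell signalling and identity were taken from a list of 78, of which 74 had a probe, 70 had ratios and 55 were measured in full. In whole tissue the signal of a listed gene need not come from T cells, and its cell of origin was not tested. Zbtb7b and Thy1, for example, averaged 14021 and 10815 in Cy5, where Cd3e averaged 924. Of the 70 genes, 56 had a mean ratio above 0 and 14 one below 0, with a median of 0.19. In limma's moderated test 13 genes that were higher and 2 that were lower had an unadjusted p under 0.05, against 10% and 8.66% of all genes, and 0 had an adjusted p under 0.05. Some of the 13, such as Sos1, were not measured in Cy3 on all arrays. Of the 55 measured in full, 9 that were higher and 2 that were lower had such a p, against 12.6% of all genes measured so. Past 2-fold was 1 of the 70, against 6.75% of all genes. It was Sos1, a Ras activator downstream of the receptor, measured in Cy3 on 1 array only, and it was not past 2-fold after loess, after median centring or without array 3 or 4. After normexp and loess 48 of the 70 were above 0, with a median of 0.07, against 49.9% of all genes. After normexp and median centring 50 were, with a median of 0.15, against 60.7% of all genes. Median centring also moved the median over all genes to 0.11, and there 3 genes of the list, Btla, Tnfrsf9 and Socs1, had an adjusted p under 0.05, all higher, against 10.8% of all genes that passed and were higher under this setting.

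Of the 55 genes of this list measured in full, 10 were higher on all arrays and 2 lower on all, against 15.4% and 10.7% of all genes measured so. Among the 10 were Tbx21, the transcription factor of type 1 helper T cells, and Btla, an inhibitory receptor. The signal of Tbx21 averaged 94.2 in Cy5 and 59.4 in Cy3, and its ratios were 0.58, 0.97, 0.69 and 0.42, with a mean of 0.67 ± 0.23 (SD over 4 arrays, SE 0.13, adjusted p = 0.138 in limma). Btla had 399 in Cy5 and 265 in Cy3 and a ratio of 0.59 ± 0.28 (SD over 4 arrays, SE 0.15, adjusted p = 0.169 in limma). The naming rule also took Sos1, the adhesion receptor Cd96 and the costimulatory receptor Icos, which met it only through Cy5, the channel in which they were high. Their Cy3 signals were measured on 1, 2 and 3 arrays, and neither a fold nor a direction is read from them. Of the 2 lower genes, S1pr1, the receptor by which T cells leave lymphoid tissue, was measured in full and had -0.49 ± 0.29 (SD over 4 arrays, SE 0.15, adjusted p = 0.209 in limma).

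Of the genes next to the CD3 chains in the pathway, Zap70, the kinase that binds their phosphorylated tails, had ratios of 0.16, 0.14, 0.24 and 0.13, and Lat, the adaptor phosphorylated by Zap70, had -0.83, -0.29, 0.05 and -0.07. Zap70 thus lay above 0 on 4 of 4 arrays by a small amount (mean 0.17, adjusted p = 0.411 in limma), and Lat varied more, with a mean of -0.29 (adjusted p = 0.429 in limma). Cd247, which encodes the zeta chain of the receptor complex, was never measured. These 3 genes were named after their values were seen, for this place in the pathway.

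**Figure D4:**
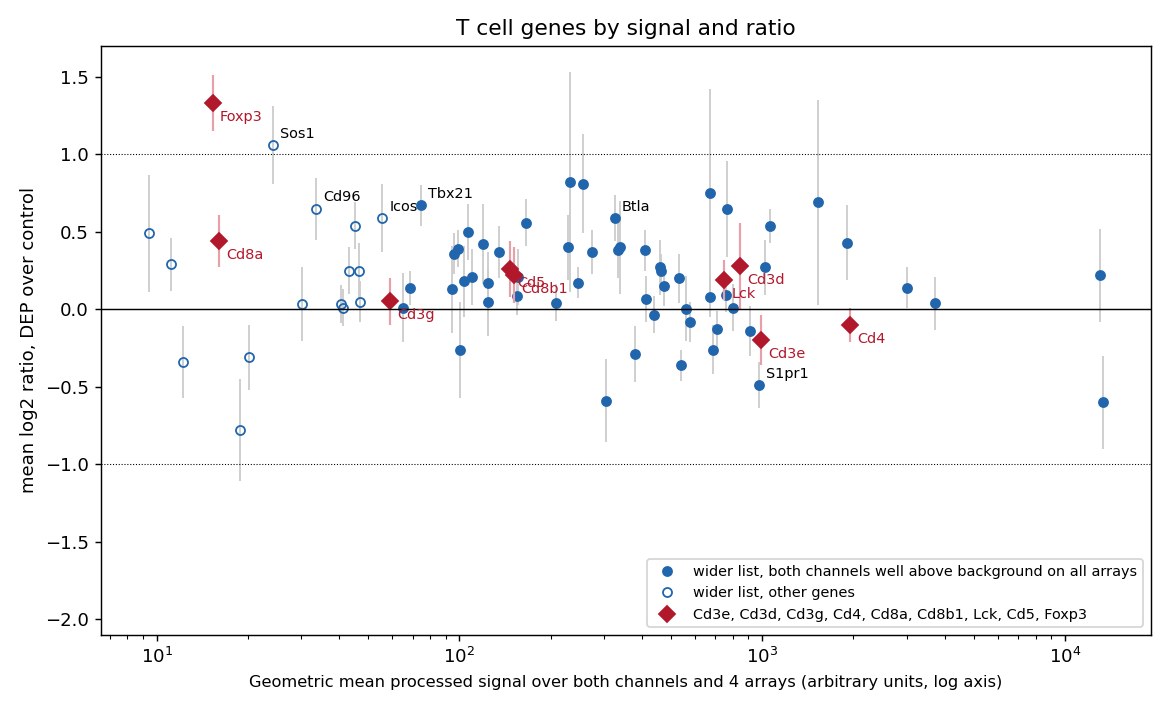
Mean log2 ratio of DEP over control (bars, standard error, n = 3 or 4 arrays) against the geometric mean signal over both channels (log axis) for the 70 genes of the wider T cell list in blue and 9 of the T cell genes described above in red; dotted lines mark 2-fold. The genes past 2-fold, Foxp3 and Sos1, lie at the low end of the signal range, and the 4 brightest red points lie between -0.20 and 0.28.

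The extracts held RNA of several other cell types, in amounts that differed between channels and arrays. Lists for B cells, macrophages and monocytes, and neutrophils and their precursors were measured in full for 9 of 10, 7 of 7 and 7 of 7 genes tested. The medians of B cells on arrays 1 to 4 were -0.59, 0.05, 0.47 and 0.36, and those of neutrophils -1.14, 0.01, 0.50 and 0.19, so that array 1 was the lowest for both. Early lymphoid genes (Rag1, Rag2 and Dntt, which rearrange the receptor genes of B and T cell precursors) had -0.70, 0.42, 1.72 and 0.89. The wider T cell list had -0.07, 0.24, 0.30 and 0.18, and was also lowest on array 1. Over the 9 T cell genes with ratios, Foxp3 and Cd8a included, the medians were 0.19, 0.16, 0.37 and 0.24. Lck, Cd3d and Cd3g, at -0.11, -0.59 and -0.10 on array 1, were below 0 where the B cell, neutrophil and early lymphoid lists were, and Cd3e, Cd4, Cd8b1 and Cd5 were above 0 there. The part of these cells in the T cell ratios was not tested.

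Marker lists of neurons, cerebellum and astrocytes had medians of -2.47, -3.94 and -2.38 on array 1 and of -2.29, -3.55 and -1.04 on array 2. These were -0.49, -0.24 and -0.05 on array 3, and 0.04, 0.23 and 0.28 on array 4, so that arrays 1 and 2 were the low ones. The summed signal of the cerebellum list was 1462 to 7808 (Cy5) and 838 to 67839 (Cy3), whereas that of the 9 T cell genes with ratios was 4080 to 6239 (Cy5) and 4068 to 6335 (Cy3). Natural killer cells share several genes with cytotoxic T cells. Of their list of 6, 5 had ratios and 1 was measured in full, with a summed signal of 212 to 265 (Cy5) and 251 to 710 (Cy3). Their medians were -0.41, -0.37, 1.13 and 0.45 on arrays 1 to 4. Of the 5 natural killer genes, 2 were past 2-fold lower, against 4.37% of all genes, and 3 had a mean ratio above 0. Macrophages and monocytes had medians of -0.09, 0.06, 0.19 and 0.29, dendritic cells -0.60, 0.20, 0.03 and -0.19, and myelin genes -1.05, -0.33, -0.23 and 0.21. Across probes, which are not independent replicates, Pearson's r of the ratios was between 0.11 and 0.61 for 5 of the pairs of arrays and -0.24 for arrays 1 and 4.

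**Figure D5:**
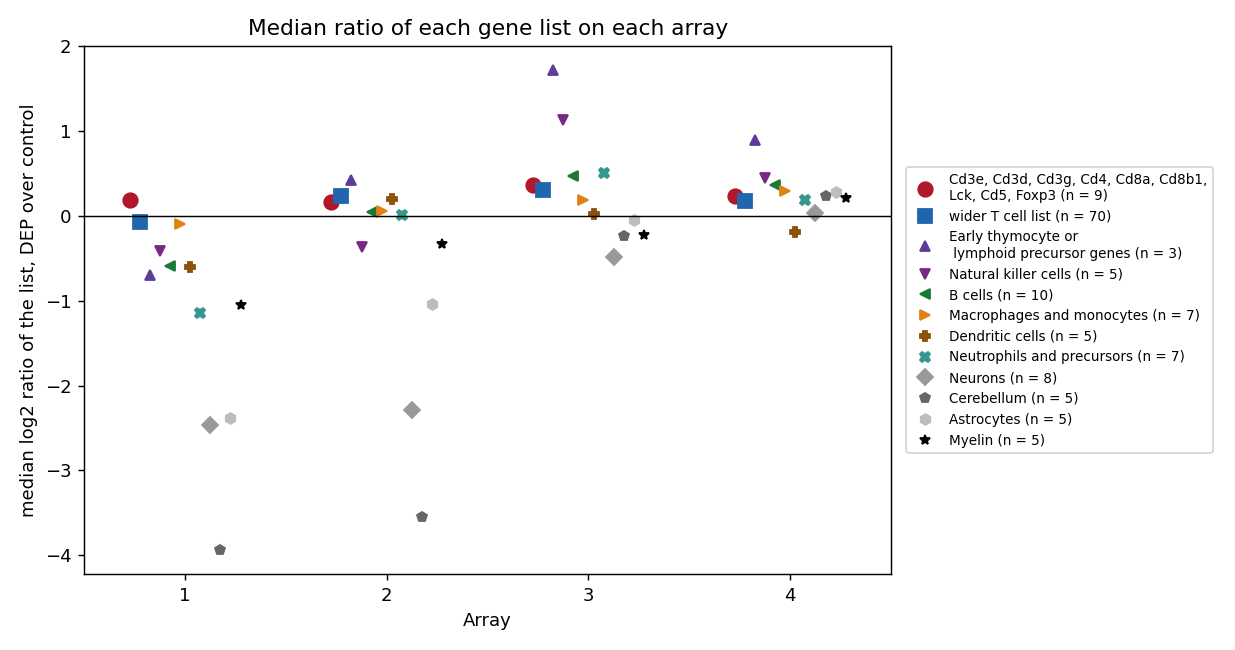
Median log2 ratio of DEP over control over the genes of each list, on each of the 4 arrays, with the number of genes tested in brackets. The medians of the 9 T cell genes (red circles) lie between 0.16 and 0.37, and include Foxp3 and Cd8a, whose Cy3 signals were never measured. Medians of the wider T cell list lie between -0.07 and 0.30, and those of cerebellum (dark grey pentagons) between -3.94 and 0.23.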

How the data were processed

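Total RNA of dissected middle ears was hybridised to 4 two-colour 4x44K arrays. The authors read the scans with Feature Extraction 10.10.1.1. Each deposited intensity had been corrected for background, spatial trend and dye within its array. The deposited log10 values give the Cy5 to Cy3 ratio of these, with 0 where the software gave none. A deposited table holds the same ratios rounded.

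Ratios were converted to log2. Control spots, spots flagged as outliers (164 to 274 of 43020 per array) and spots without a ratio (6179 to 8558) were left out, spots of a probe were averaged, and a probe needed ratios on 3 arrays. A probe counted as well above background on an array if most of its unflagged spots were. Probes were named through the RefSeq table of GRCm38.p6, which matched 27655 of 39429; the array's own grid is of an older build, so that table's coordinates were not used. Each gene is given by its brightest probe. An intercept was fitted with lmFit and eBayes (limma 3.58.1, R 4.3.3; 31577 probes), two-sided, and p-values were adjusted by Benjamini-Hochberg across these probes. The fit was tested on simulated ratios. Intervals of 95% come from the moderated standard error. An exact sign-flip test of 4 ratios cannot go below p = 0.125, so none was run. The number of arrays and the signal over background limit the precision: each array had 25771 to 27176 probes measured in Cy5 and 23350 to 26798 in Cy3.

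For the limit used for Foxp3, signals were put on a common scale between arrays (Aquantile) after the dye normalization. The alternatives were normexp correction (offset 50, on median signals, as the files hold no mean signals) with loess or median centring, the deposited table, filters on dim probes, keeping flagged spots, an intensity trend or no moderation of the variance, the mean of a gene's probes, and leaving out each array.

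The genes named are the 10 members with every probe and, of the wider T cell list, up to 5 on each side of 0 by mean ratio among those with a channel measured on all arrays and the same sign throughout, together with the 5 genes most like the brightest CD3 chain measured in full. Further genes are marked as chosen after their values were seen, except that cell type markers come from lists. The members and lists were chosen with earlier results of these data known. The qRT-PCR was not analysed here, and 1 gene that this rule names is not reported here.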

Additional observations from a re-analysis of the deposited data

How the results depend on the processing

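The reported test is itself paired, since it is run on the ratio of the 2 extracts of each array, and no further replicate number was left to block on. The count of members past 2-fold, 1, became 0 after normexp followed by loess, 0 if median centring replaced loess, 0 with 1 channel or both required to be measured on all arrays, and 0 when only genes measured in full were counted in the unchanged fit, an alternative chosen after seeing the data. It was 1 whichever array was left out. The count of members with an unadjusted p under 0.05, 2, was 1 after loess, 1 with an intensity trend, 1 without moderation and 0 with either filter, as fewer genes were then tested. It ranged from 1 to 2 with an array left out, being 1 without replicate 1, 3 or 4, each time for Foxp3 alone. Median centring also gave 2, but for Cd4 and Lck, where 37.1% of all genes had such a p, and the mean of a gene's probes gave 2, for Cd4 and Foxp3, where 18.3% had. The wider list's count past 2-fold, 1, was 0 after loess, 0 after median centring, 0 if both channels had to be measured and 2 with the mean of a gene's probes. It ranged from 0 (without replicate 3) to 4 (without replicate 4, where Sos1 was lost, Tnfrsf18, Ikzf2, Gata3 and Bcl11b passed, and 9.99% of all genes did), and was 2 without replicate 1 (Sos1 and Cd247). Its count with an unadjusted p under 0.05, 15, ranged from 7 (without replicate 2 or 3, where 11.1% and 11.5% of all genes had such a p) to 24 (without replicate 1, where 17.9% had).

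Of 112 values of the members' ratios under the alternatives, 105 had the sign of the reported value. With median centring the sign changed for Cd3e (0.081), Cd3g (-0.081), Cd4 (0.28) and Cd8a (-0.13). With an array left out the means ranged from -0.33 (without replicate 1) to -0.094 (without 3) for Cd3e, from 0.012 (3) to 0.57 (1) for Cd3d, from -0.15 (1) to -0.051 (3) for Cd4, from 0.30 (4) to 0.58 (2) for Cd8a, from 0.058 (2) to 0.36 (3) for Cd8b1, from 0.13 (3) to 0.30 (1) for Lck, from 0.092 (1) to 0.38 (2) for Cd5 and from 1.2 (1) to 1.47 (2) for Foxp3. The sign also changed for Cd3g with loess (-0.0014) and without replicate 4 (-0.066, the lowest of its values with an array left out, the highest being 0.15), and for Cd4 with the mean of its probes (0.53). No adjusted p of a member was under 0.05 in limma or in the unmoderated test under any of these, the lowest being 0.0887 for Cd4 with median centring, a setting in which 2988 of all genes passed. The number of genes past 2-fold was 1734, and 449 after loess, 605 after median centring and 577 over genes measured in full. Of these 610, 79, 385 and 128 were higher. It was 2567 without replicate 4. The cause of these shifts was not tested. Taking the median of a probe's spots, also chosen after seeing the data, could not alter these ratios, since the brightest probe of each member has 1 spot. None of 18 sets of 4 ratios, those of the members and of the named genes of the wider list, held an array outside Dixon's limit. Signal over background limits Foxp3, Cd8a, Ctla4 and the dim Cd4 probe.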

Other observations

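Some transcription factor and receptor genes of the wider T cell list had ratios that swung far more between arrays than those of the CD3 chains did. They were chosen for their spread after the values were seen. Bcl11b, which holds T cells in their lineage, had log2 ratios of 3.00, 0.60, 1.08 and -1.41 on arrays 1 to 4. Gata3, the transcription factor of type 2 helper T cells, had 2.84, 0.69, 0.50 and -1.26. Tnfrsf18, a receptor that regulatory T cells carry, had 2.93, 0.66, 0.66 and -1.25. All 3 were measured in full, all were highest on array 1 and below 0 on array 4, and all have SDs between 1.68 and 1.81, against 0.32 for Cd3e, 0.68 for Cd3d and 0.29 for Cd3g. With adjusted p values in limma of 0.560 for Bcl11b, 0.594 for Gata3 and 0.569 for Tnfrsf18, none passed the test between the groups. No explanation was tested for these values.

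Cd28, a costimulatory receptor of T cells, and its ligand Cd86 on antigen-presenting cells were also picked after their values were seen. Both had ratios above 0 on 4 of 4 arrays, as had 15.4% of all genes measured in full, with means of 0.36 and 0.56 and standard errors of 0.13 and 0.15 (n = 4 arrays). Their unadjusted p values in limma were 0.0375 and 0.0132, where 12.6% of all genes measured in full had one under 0.05. Neither gene passed after adjustment. Cd80, the other ligand of Cd28, had -0.08, below 0 on 3 of 4 arrays. Ctla4, which competes with Cd28 for these ligands, was not measured on any array.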
